A study of Mus musculus with 6 samples.

Results

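The DNA replication and S phase genes are 35 listed genes that license replication origins, build and run the replication fork, make its nucleotides or drive entry into S phase. They were chosen by name and role, and a gene was measured by its brightest probe set that carries a single gene symbol. Of the 35, 33 had such a probe set, out of 22180 genes in all. The probe sets of Rfc4 and Ccne2 are annotated to a second gene as well, and these genes were not analysed here. RNA came from LSK cells, the lineage-negative, Sca-1+ and c-Kit high fraction of mouse bone marrow that holds stem cells and the earliest progenitors. WT mice gave 3 arrays (Affymetrix Mouse Gene 2.0 ST) and mice with a tamoxifen-inducible conditional knockout of Ctcf another 3, each labelled a biological replicate. Both groups were males 8 weeks old, injected daily with 2 mg of tamoxifen over 3 days, and cells were taken 24 hours after the final injection. The controls are called WT in the labels, while the design text speaks of CreER mice, and whether they carry the recombinase is not stated. Neither the promoter of CreER nor the number of mice behind an array is stated in the sources used here.

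Before a cell can copy its DNA, the origin recognition complex with Cdc6 and Cdt1 loads the ring-shaped MCM helicase at origins in G1. Cdc45 and the GINS complex then switch the helicase on, primase and the polymerases start the new strands, and the sliding clamp PCNA holds the polymerases on the template. E2F transcription factors turn on most of these genes together at the G1/S border, so their RNA is commonly used as a mark of dividing cells, and the most primitive stem cells of the marrow are largely quiescent.

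Every measured replication gene had a positive knockout minus WT difference, and no single gene passed the test. The log2 differences of the 33 genes lay between 0.01 and 0.63, with a median of 0.33, where the median of all 22180 genes was 0.02. In linear terms the middle gene of the group was 1.26-fold higher in the knockout and the most different gene 1.55-fold. Positive differences were found for 33 of 33 members and for 54.7% of all genes, or 60.4% of the genes above the median level, where all 33 members lie. By limma with Benjamini-Hochberg adjustment over all genes 0 of 33 members were called, against 0.0721% of all genes, and the lowest adjusted p of a member was 0.394. At an unadjusted limma p under 0.05, 13 members (39.4%) were higher. The share of higher genes was 5.03% among all genes and 6.98% among those above the median level. On the lower side there were 0 members at that p, where all genes gave 3.08%. In 11 members (33.3%) all 3 knockout arrays lay above all 3 WT arrays, against 7.96% of all genes. Members were chosen with earlier results of these arrays known, so these shares describe the group and are no test of it. In sorted bulk RNA, a change in the share of cells that cycle and a change in RNA per cell cannot be told apart.

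Single WT arrays differed from each other by as much as the group means did. WT replicate 2 was the lowest of the 6 arrays for 28 of 33 members (84.8%), against 23% of all genes, and it lay below every knockout array for 31. WT replicate 3 was the opposite, above WT replicate 1 for 29 of 33 members and above at least 1 knockout array for 22. For 27 of the 33 the difference between the groups was smaller than the range of the WT arrays. That sets a range of single arrays against a difference of means of 3 arrays, which are unlike measures. The counts of 31, 29, 22 and 27 were not made over all genes. The median SD of the WT arrays was 0.31 for the members and 0.14 for all genes. Without WT replicate 2 the median difference was 0.22, and 30 of 33 members stayed positive, against 53.4% of all genes. At an unadjusted p under 0.05 by limma 4 members (12.1%) were then higher, against 3.26% of all genes. For 16 of 33 members the difference without that array was smaller by over 1.5 times or turned negative, and their values are given with each gene.

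**Figure D1:**
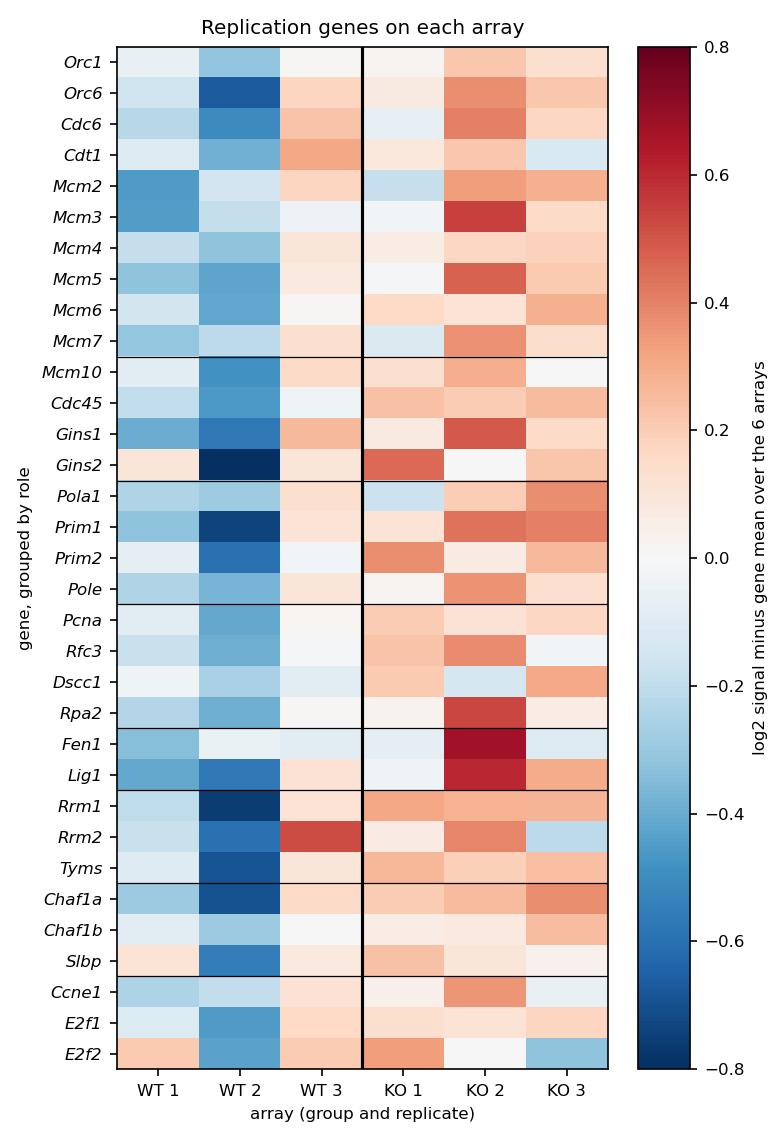
Log2 signal of each of the 33 replication genes on each array minus the gene's mean over the 6 arrays, with genes in rows grouped by role and arrays in columns (KO, Ctcf conditional knockout). The WT 2 column is the lowest for 28 of 33 genes, while the WT 3 column is closer to the knockout columns than to the other WT columns.

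The promoters of these genes carry a feature that the choice did not use. Promoter windows of 300 bases, from 250 before to 50 after a gene's start, were read from RefSeq (GRCm38.p6) for 27 of the 33 members, and Mcm4, Gins1, Gins2, Prim2, Pole and Dscc1 had none in the table. Searched on both strands were the 4 E2F words TTTCCCGC, TTTCGCGC, TTTGCCGC and TTTGGCGC, which can overlap each other on opposite strands. An E2F word was present for 11 of 27 members (40.7%), against 2.6% of all 27025 genes with a window and 4.87% of genes above the median level. The word TTTGAA of the CHR, an element known from promoters of mitosis genes, was present for 14.8% of members and 20.2% of all genes. In a list of G2/M genes the shares were turned around, 3.7% with an E2F word and 77.8% with the CHR word. The E2F word was not particular to the members. In the wider list of other replication genes described below, 21 of 60 genes with a window (35%) held one, and 21.7% the CHR word. Windows of members had a median GC content of 57.3%, against 52.7% of all windows and 60.7% of windows of the brighter genes. The 11 members with an E2F word had a median log2 difference of 0.33 and the 16 without one 0.32, so the word went with no larger difference within the group. A match is a run of letters and not a bound site.

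Shown are the windows of the 2 members with the largest differences among those that hold an E2F word, Lig1 and Mcm3, and of E2f2, the member with the lowest difference, 5′ to 3′ on the gene's strand with E2F words on either strand in capitals. Of the 3 windows of Lig1 and the 2 of E2f2, the single one with a word is given.
Lig1, chr7:13278576-13278875, plus strand: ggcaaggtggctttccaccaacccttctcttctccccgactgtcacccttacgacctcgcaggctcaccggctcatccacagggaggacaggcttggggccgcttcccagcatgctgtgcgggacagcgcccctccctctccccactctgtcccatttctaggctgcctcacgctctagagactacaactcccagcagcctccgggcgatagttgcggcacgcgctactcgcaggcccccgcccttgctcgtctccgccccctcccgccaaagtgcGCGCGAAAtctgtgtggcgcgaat
Mcm3, chr1:20820263-20820562, minus strand: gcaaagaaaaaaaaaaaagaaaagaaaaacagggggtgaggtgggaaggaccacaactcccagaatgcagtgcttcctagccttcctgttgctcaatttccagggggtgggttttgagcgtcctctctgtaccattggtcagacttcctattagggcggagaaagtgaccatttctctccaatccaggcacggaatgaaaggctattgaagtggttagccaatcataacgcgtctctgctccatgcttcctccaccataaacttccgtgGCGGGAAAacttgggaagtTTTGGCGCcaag
E2f2, chr4:136172024-136172323, plus strand: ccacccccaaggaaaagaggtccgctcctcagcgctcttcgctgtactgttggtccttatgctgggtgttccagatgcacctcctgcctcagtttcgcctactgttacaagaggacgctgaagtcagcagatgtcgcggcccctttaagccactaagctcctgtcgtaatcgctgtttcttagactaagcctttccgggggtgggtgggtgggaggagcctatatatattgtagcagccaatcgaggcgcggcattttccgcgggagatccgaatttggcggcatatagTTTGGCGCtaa
In all 3 windows a word lies just downstream of the annotated start, its first base at position 27 in Lig1, 20 and 39 in Mcm3 and 40 in E2f2, counted from 1 at the start. Lig1 holds TTTCGCGC on the opposite strand and E2f2 holds TTTGGCGC, so each has an E2F word, while their differences, 0.58 and 0.01, stand near the top and at the bottom of the group.

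**Figure D2:**
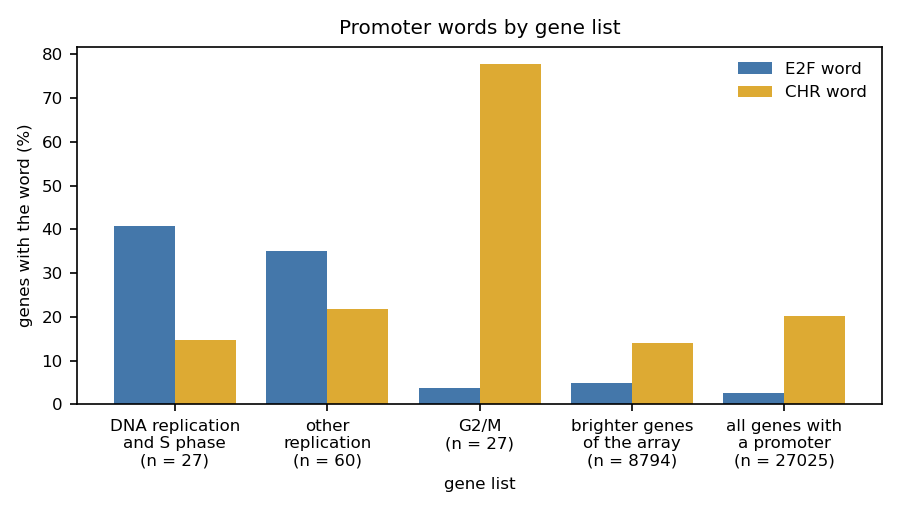
Share of genes (%) whose promoter window holds an E2F word (blue) or the CHR word (yellow), by gene list, with n the number of genes that have a window. The E2F word is present for 40.7% of the DNA replication and S phase genes and 35% of the other replication genes. The CHR word is present for 77.8% of the G2/M genes.

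Origin licensing genes lay between 0.12 and 0.46 with a median of 0.31. At an unadjusted limma p under 0.05, 3 of 10 were higher, against 5.03% of all genes. Without WT replicate 2 that count was 1 of 10, against 3.26% of all genes. Mcm2 to Mcm7 encode the 6 subunits of the helicase ring. Mcm3 stood at 8.51, 8.76 and 8.91 on WT arrays 1 to 3 and at 8.94, 9.50 and 9.11 on the knockout arrays, a log2 difference of 0.46 (SE 0.17, limma adjusted p = 0.554). The groups did not overlap, but the lowest knockout array was only just above the highest WT array. Mcm6 was at 9.97, 9.71 and 10.13 in WT and 10.28, 10.23 and 10.41 in the knockout, again without overlap, and differed by 0.37 (SE 0.13, limma adjusted p = 0.537). Mcm5 differed by 0.45 (SE 0.17), but its lowest knockout array, 9.82, was below its highest WT array, 9.91. Mcm2, Mcm4 and Mcm7 differed by 0.29, 0.27 and 0.26, each with overlapping groups. The median over the 6 ring subunits was 0.33, with no subunit opposed to the others. Their WT levels on the log2 scale were between 8.73 and 10.20, which cannot be ranked between genes because probe sets differ in brightness.

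The genes that load the ring varied more. Orc1, the large ATPase of the origin recognition complex, was at 6.52, 6.26 and 6.59 in WT and 6.60, 6.80 and 6.71 in the knockout, a difference of 0.24 (SE 0.12) with groups just apart, and of 0.15 without WT replicate 2. Orc6, a small subunit of that complex, differed by 0.44 (SE 0.20) and overlapped, and by 0.21 without WT replicate 2. Cdc6, the ATPase that recruits the helicase, differed by 0.33 (SE 0.20), and by 0.16 without that array, and WT replicate 3 at 7.94 lay above the knockout arrays at 7.65 and 7.89. For Cdt1, the loading partner whose protein is destroyed once S phase starts, the order was mixed. It stood at 7.93, 7.65 and 8.35 in WT and at 8.12, 8.25 and 7.91 in the knockout, so its highest array was WT replicate 3, and the difference of 0.12 (SE 0.18) became -0.04 without WT replicate 2.

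Among genes that switch the helicase on, Cdc45 had the smallest p of the group. Cdc45, the protein that joins MCM and GINS into the active helicase, was at 7.42, 7.16 and 7.58 in WT and at 7.85, 7.82 and 7.87 in the knockout. The knockout arrays lay within 0.06 of each other and above all WT arrays. The difference was 0.46 (SE 0.13, limma adjusted p = 0.394, unadjusted p = 0.00578), and it was between 0.35 and 0.56 with 1 array left out, with an unadjusted p under 0.05 in all 6 of those fits. Gins1 and Gins2, subunits of GINS, differed by 0.47 (SE 0.21) and 0.45 (SE 0.25), and Mcm10, which helps to fire the loaded helicase, by 0.28 (SE 0.17). These 3 overlapped between groups, and without WT replicate 2 Gins1 differed by 0.30 and Mcm10 by 0.11. Gins2 shows how far 1 array can carry a value: it was at 9.11 on WT replicates 1 and 3 but 8.15 on WT replicate 2, and without that array the difference was 0.13.

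**Figure D3:**
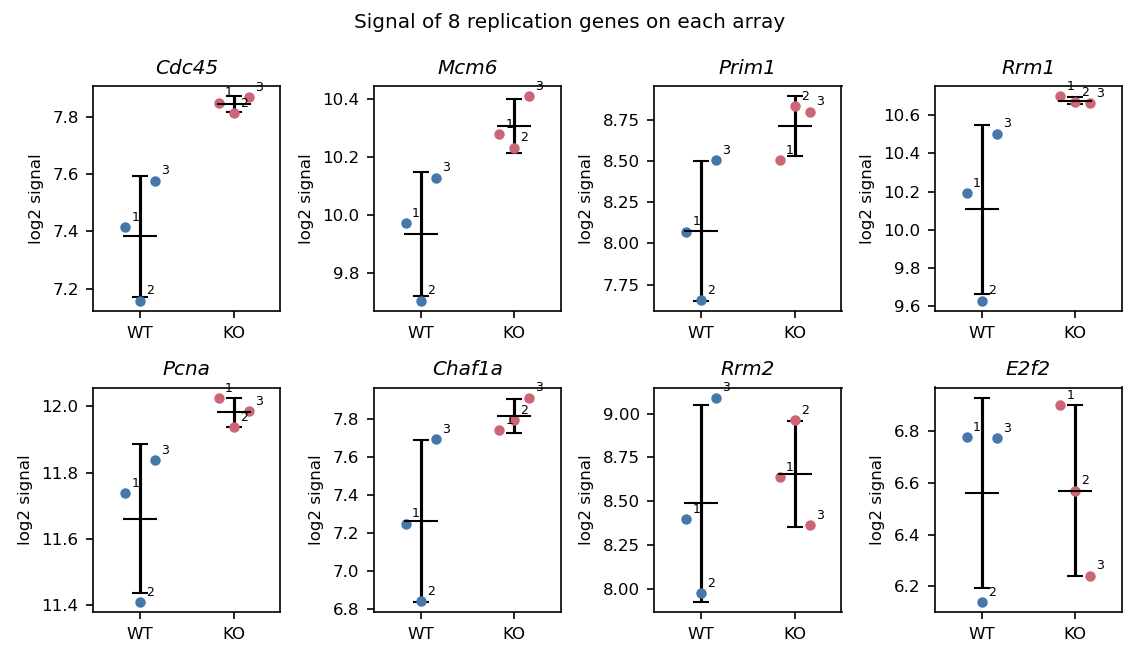
Log2 signal of 8 replication genes on the WT and Ctcf conditional knockout (KO) arrays, with the replicate number beside each point, the group mean as a horizontal line and bars of 1 SD (n = 3). The groups are apart in Cdc45, Mcm6, Rrm1, Pcna and Chaf1a and overlap in Prim1, Rrm2 and E2f2; the vertical axes do not start at 0.

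Prim1, the catalytic subunit of the primase that lays the RNA primer, had the largest difference of the 33. It was at 8.07, 7.66 and 8.50 in WT and 8.50, 8.83 and 8.80 in the knockout, where knockout replicate 1 equalled WT replicate 3 to 2 decimals. The log2 difference was 0.63 (SE 0.20, limma adjusted p = 0.488), or 1.55-fold, and fell to 0.42 without WT replicate 2. The regulatory subunit Prim2 was at 9.46, 8.94 and 9.52 in WT and 9.91, 9.60 and 9.80 in the knockout, without overlap, and differed by 0.46 (SE 0.17), or by 0.28 without WT replicate 2. Pola1, the polymerase that extends the primer, and Pole, the catalytic subunit of the leading strand polymerase, differed by 0.27 (SE 0.17) and 0.34 (SE 0.15), and both overlapped. A dimmer probe set of Pole, at a WT mean of 5.33, differed by -0.19.

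Pcna, the sliding clamp, was at 11.74, 11.41 and 11.84 in WT and 12.02, 11.94 and 11.99 in the knockout, a difference of 0.32 (SE 0.13, limma adjusted p = 0.588) with groups apart, and of 0.19 without WT replicate 2. Rpa2, a subunit of the complex that coats single-stranded DNA, differed by 0.41 (SE 0.17) and did not overlap, although WT replicate 3 at 8.06 and knockout replicate 1 at 8.08 nearly met. Rfc3, a subunit of the clamp loader, differed by 0.39 (SE 0.14), with WT replicate 3 at 6.97 and knockout replicate 3 at 6.96. Dscc1, of the alternative clamp loader that aids sister chromatid cohesion, differed by 0.25 (SE 0.14).

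On the lagging strand, knockout replicate 2 was the highest array for both genes, the DNA ligase gene Lig1 and the flap nuclease gene Fen1. Lig1 was at 8.04, 7.88 and 8.57 in WT and 8.42, 9.06 and 8.75 in the knockout, and differed by 0.58 (SE 0.21, limma adjusted p = 0.551). Fen1 was at 6.47, 6.76 and 6.72 in WT and at 6.74, 7.49 and 6.70 in the knockout, so that only knockout replicate 2 stood clear of WT. Its difference of 0.32 (SE 0.21) was 0.07 with that array left out, and a dimmer probe set of Fen1 differed by -0.06.

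The 3 genes of nucleotide synthesis had positive differences with all arrays, and no test compared them with each other. Rrm1, the large subunit of ribonucleotide reductase, was at 10.19, 9.63 and 10.50 in WT and at 10.70, 10.67 and 10.66 in the knockout. The knockout arrays spanned 0.04 and the WT arrays 0.87, and the difference was 0.57 (SE 0.20, limma adjusted p = 0.527) without overlap, or 0.33 without WT replicate 2. Rrm2, the small subunit whose level limits the enzyme outside S phase, was at 8.40, 7.97 and 9.09 in WT and 8.64, 8.96 and 8.36 in the knockout. Its highest array was WT replicate 3, and its difference of 0.17 (SE 0.27) became -0.09 without WT replicate 2 and -0.00197 as the mean of its probe sets. Tyms, thymidylate synthase, was at 8.50, 7.91 and 8.70 in WT and 8.87, 8.79 and 8.84 in the knockout, a difference of 0.46 (SE 0.19) without overlap that was 0.23 without WT replicate 2.

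Chaf1a, the large subunit of the chromatin assembly factor that places histones on new DNA, was at 7.25, 6.84 and 7.69 in WT and 7.74, 7.79 and 7.91 in the knockout. It differed by 0.55 (SE 0.20, limma adjusted p = 0.533) without overlap, as did its partner Chaf1b by 0.25 (SE 0.12), and Chaf1a differed by 0.34 without WT replicate 2. Slbp, which binds the stem-loop of histone mRNA, differed by 0.25 (SE 0.18), and by 0.03 without WT replicate 2.

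The regulators of the G1/S border had the lowest median of the 8 roles, 0.22, and in none of the 3 were the groups apart. E2f1, an activating E2F factor, was at 8.24, 7.89 and 8.51 in WT and at 8.48, 8.46 and 8.52 in the knockout, a difference of 0.27 (SE 0.15) that was 0.11 without WT replicate 2. Ccne1, the cyclin E gene that partners CDK2, differed by 0.22 (SE 0.15). E2f2, another activating factor, was at 6.78, 6.14 and 6.77 in WT and 6.90, 6.57 and 6.24 in the knockout. It differed by 0.01 (SE 0.22), and by -0.20 without WT replicate 2.

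**Figure D4:**
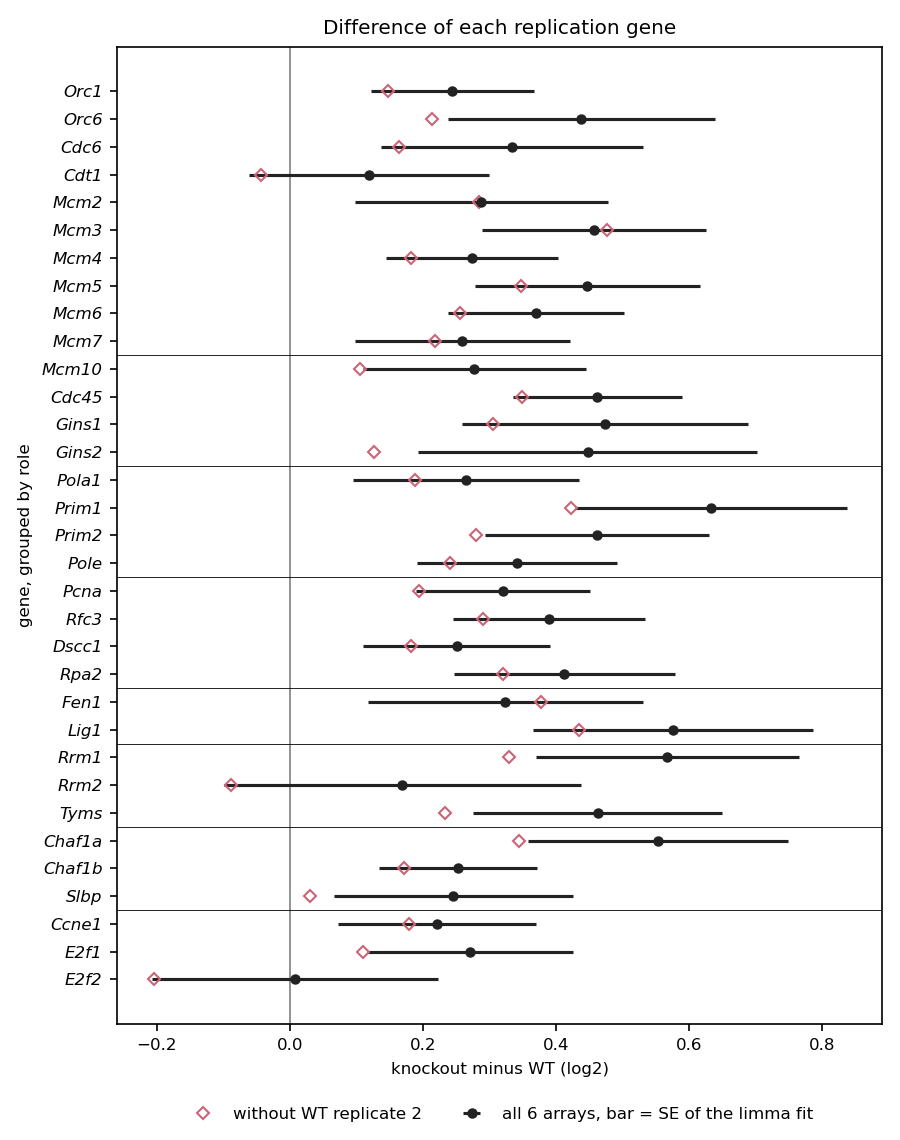
Knockout minus WT difference (log2) of each of the 33 replication genes with all 6 arrays (black, bars of 1 SE from the limma fit) and without WT replicate 2 (open diamonds), grouped by role. All 33 black points are above 0, and without WT replicate 2 Cdt1, Rrm2 and E2f2 lie below 0.

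Across the members, 3 kept an unadjusted limma p under 0.05 whichever array was left out: Cdc45, Prim1 and Rrm1. The share of all genes that did so was not counted, so whether 3 of 33 is unusual is not known. Without WT replicate 2 they differed by 0.35, 0.42 and 0.33. With all arrays 13 members were higher at that threshold. The number was 4 without WT replicate 2 (3.26% of all genes), 8 without WT replicate 1 (3.83% of all genes) and 22 without WT replicate 3 (5.77% of all genes). Leaving out knockout replicate 1 gave 13 members (4.51% of all genes), leaving out its replicate 2 gave 7 (4.1%) and leaving out its replicate 3 gave 6 (4.75%). Array by array, knockout replicate 2 was above WT replicate 2 for 33 of 33 members, with a median difference of 0.73. Knockout replicate 1 was above WT replicate 3 for 17 of 33, with a median difference of 0.02. The WT arrays themselves differed as much, with WT replicate 2 below WT replicate 3 for 32 of 33 members and a median difference of -0.50. Knockout arrays were closer to each other, with median differences between -0.17 and 0.09, and in 25 of 33 members the SD was larger in WT than in the knockout. Over all genes the median SD was 0.14 in WT and 0.15 in the knockout. The counts of members in these comparisons of arrays and of SDs were not made over all genes.

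A wider list of 73 other measured replication and G1/S genes showed the same direction with exceptions. The differences of 67 were above 0 and those of 6 below it, and the middle value was 0.27. By limma 0 passed the adjustment over all genes, against 0.0721% of all genes. At an unadjusted limma p under 0.05, 19 (26%) were higher, against 5.03% of all genes, and 2 of 73 were lower, near the 3.08% of all genes. Without WT replicate 2 the number higher was 6, against 3.26% of all genes, and the middle value 0.18. The 4 with the largest positive differences were Asf1b, Dbf4, Rpa1 and Gins4. Asf1b, a histone chaperone, was at 9.16, 8.02 and 9.29 in WT and 9.85, 10.07 and 9.50 in the knockout, a difference of 0.99 (SE 0.31, limma adjusted p = 0.477) that was 0.59 without WT replicate 2. Dbf4, the activator of the CDC7 kinase that fires origins, differed by 0.55 (SE 0.22), or by 0.36 without WT replicate 2, Rpa1, the large subunit of the single-strand binding complex, by 0.54 (SE 0.14), and Gins4, of GINS, by 0.54 (SE 0.17). Rpa1, Gins4 and Asf1b did not overlap between the groups.

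The 4 most negative were Samhd1, E2f5, Rrm2b and Fbxw7. Samhd1, which breaks deoxynucleotides down, was at 10.31, 10.51 and 10.61 in WT and 10.05, 10.12 and 9.99 in the knockout, a difference of -0.42 (SE 0.12, limma adjusted p = 0.400). E2f5, a repressive E2F factor, was at 7.44, 7.55 and 7.23 in WT and 6.95, 7.09 and 6.95 in the knockout, a difference of -0.41 (SE 0.12, limma adjusted p = 0.429). In both genes all knockout arrays lay below all WT arrays, as for 5.32% of all genes, and without WT replicate 2 they differed by -0.40 and -0.34. Rrm2b, the p53-induced small subunit of ribonucleotide reductase, differed by -0.16 (SE 0.11), and Fbxw7, which marks cyclin E for destruction, by -0.07 (SE 0.12), which was 0.00 without WT replicate 2.

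G2/M genes and some lineage markers differed between the same arrays. The median over the members, each taken as its deviation from the gene's mean, was -0.19, -0.42 and 0.10 on WT arrays 1 to 3 and 0.07, 0.28 and 0.17 on knockout arrays 1 to 3. For 33 measured G2/M genes the medians were -0.27, -0.74 and 0.20 in WT and 0.33, 0.46 and 0.01 in the knockout, with all 33 lowest on WT replicate 2. Their knockout minus WT differences had a median of 0.53, and 19 (57.6%) were higher at an unadjusted limma p under 0.05, against 5.03% of all genes. Without WT replicate 2 the median was 0.31, and 1 of 33, Ccna2, was higher at that p, against 3.26% of all genes. Within the knockout the lists parted: replicate 3 was lowest for G2/M genes, while replicate 1 was lowest for replication genes. Mki67, the proliferation antigen, differed by 0.63, the cyclin gene Ccna2 by 0.76 and the mitotic kinase gene Cdk1 by 0.66, which without WT replicate 2 were 0.42, 0.45 and 0.32. Genes of granulocyte and myeloid progenitors, which divide more often than stem cells, were positive for 7 of 9, and their array medians were between -0.49 and -0.19 in WT and between 0.17 and 0.66 in the knockout. Their summed level, as log2, was between 13.05 and 13.53 in WT and between 13.97 and 14.37 in the knockout. Elane, neutrophil elastase, differed by 1.21 and stood at 11.33 ± 0.33 in WT (SD, n = 3). It was the brightest of the 9 in WT and weighs heavily in that sum. Csf3r at -0.15 and Gfi1 at -0.01 were the negative ones. For 6 lymphoid genes the summed level was between 13.90 and 14.39 in WT and between 13.25 and 13.85 in the knockout, and 5 of 6 were negative. Ighm, at 13.85 in WT and 13.21 in the knockout, weighs most in that sum. The most negative were Il7r at -2.28 (limma adjusted p = 0.00672) and Rag2 at -1.45 (limma adjusted p = 0.0455), and Notch1, at 0.01, was the positive one. The part of these lists in the difference of the replication genes was not tested.

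**Figure D5:**
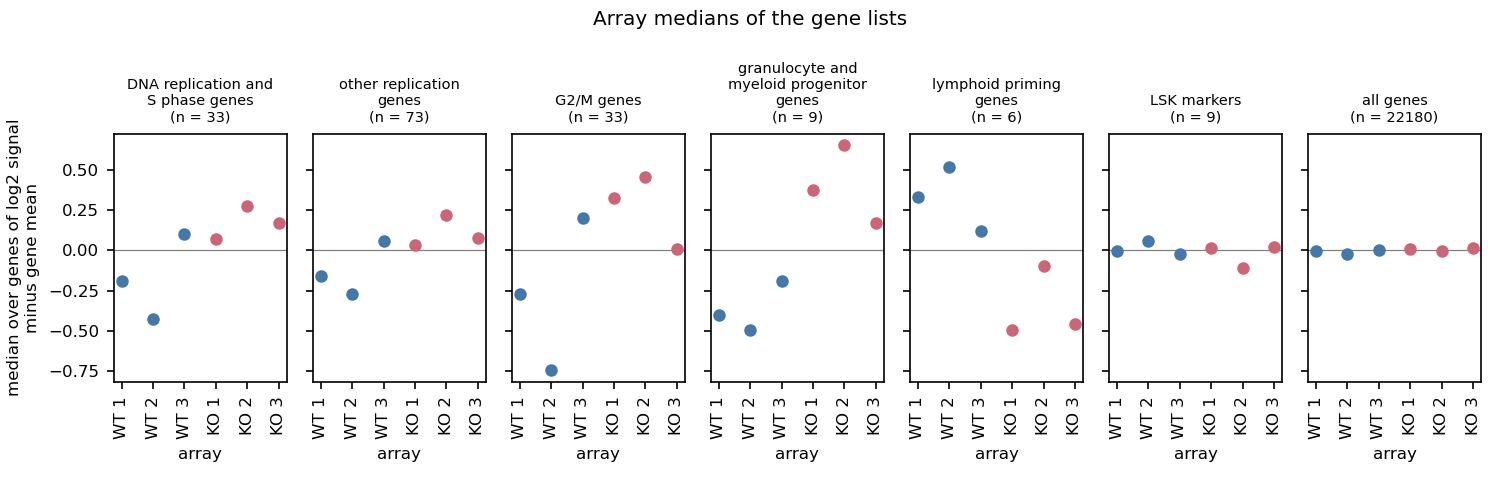
Median over each gene list of the log2 signal minus the gene's mean over the 6 arrays, for the 3 WT (blue) and 3 Ctcf conditional knockout (KO, red) arrays. Replication and G2/M genes are lowest on WT 2 and overlap between the groups, myeloid progenitor genes are higher and lymphoid genes lower on all KO arrays, and the median of the LSK markers stays within 0.11 of 0, with single markers that differ in both directions.

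The sort and the deletion were checked on the same arrays. Kit, the receptor c-Kit, stood at 10.38 ± 0.24 in WT against 10.15 ± 0.05 in the knockout, and Cd34 at 11.97 ± 0.05 and 11.95 ± 0.14 (SD, n = 3 each); Ly6a, the gene of Sca-1, was not analysed here. Of 9 LSK markers 2 had positive differences, and the list's median was -0.08. The transcription factor gene Gata2 differed by 0.34 (limma adjusted p = 0.418) and Slamf1, which encodes CD150, by 0.33 (limma adjusted p = 0.532), both with the groups apart. Flt3, a receptor of early lymphoid and myeloid progenitors, differed by -0.42 (limma adjusted p = 0.563) with overlap, and Mecom, Hlf, Ly6e and Procr by -0.28, -0.15, -0.08 and -0.03. At an unadjusted limma p under 0.05, Gata2 and Slamf1 were higher (5.03% of all genes) and Flt3 lower (3.08% of all genes). For Kit the difference was -0.22 (limma adjusted p = 0.727), and it was -0.09 without WT replicate 2. Its groups were only just apart, with WT replicate 3 at 10.22 and knockout replicate 3 at 10.21. Ctcf, the deleted gene, was at 8.35, 8.59 and 8.73 in WT and at 7.58, 7.78 and 7.86 in the knockout, 56.7% of the WT level (log2 -0.82, limma adjusted p = 0.104, exact two-sided permutation p = 0.1, the smallest that 3 against 3 can give). Of 7 T and NK cell genes 6 were below the median level of all genes, 6.29, with Nkg7 at 10.24 (difference 0.68) as the exception. The brightest WT signals of the other lists follow, with the log2 difference in brackets. They were Ighm (lymphoid) at 13.85 (-0.64), Jchain (B and plasma) at 12.50 (-0.90) and Car2 (erythroid) at 11.18 (0.33). The others were Ngp (mature neutrophil) at 10.39 (-2.44), Ly86 (monocyte and macrophage) at 9.88 (0.20) and Gp9 (megakaryocyte) at 9.34 (0.31). Single genes do not speak for their lists. Positive differences were found for 4 of 7 erythroid, 2 of 7 monocyte and macrophage and 4 of 5 megakaryocyte genes, against 54.7% of all genes. Without WT replicate 2 the counts were 2, 0 and 3, against 53.4% of all genes. Summed levels of B and plasma cell genes were between 12.59 and 13.62 in WT and between 11.92 and 12.78 in the knockout, and those of mature neutrophil genes between 10.21 and 12.40 and between 9.57 and 10.47. Values carry no detection call, so they do not show that a cell type is present.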

How the data were processed

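The authors deposited log2 probe set summaries of 6 arrays, 3 in each group. The submitters' processing notes name RMA and oligo and give no version. RMA subtracts background, equalises the probe distributions by quantiles and combines the probes of a set, and it shrinks differences of dim sets. No source used here states the summary level or the genome build. The platform annotation gave 23521 of 41345 probe sets a single symbol, and the brightest per gene was kept, leaving 22180 genes with no filter on low values.

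Groups were compared by limma 3.58.1 (R 4.3.3, lmFit and eBayes) over all genes with no other term, and a gene was called at an adjusted p under 0.05. The script was tested on simulated data. With 3 arrays a group, precision is low. Members and lists were chosen with earlier results of these data known. Named are the 33 members, Ctcf, the 4 largest differences per direction of the wider list and 3 G2/M genes. Also named are the 9 measured LSK markers and the brightest WT gene of each list of another cell type. Il7r, Rag2, Notch1, Csf3r and Gfi1 were picked by their values. Alternatives were trended robust moderation, array weights, brighter genes only, 2 rescalings, the mean of probe sets, a replicate block, a threshold of 0.1 and each array left out.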

Additional observations from a re-analysis of the deposited data

How the results depend on the processing

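By limma 0 replication genes were called under the alternatives run or at a threshold of 0.1, and the lowest adjusted p of a member was 0.242, without WT replicate 3. Of 429 member values recomputed, 422 kept their sign and 7 changed it. Many of the 422 were fixed in advance. Trended robust moderation, the brighter genes only and the replicate block cannot change a difference, only its p. The mean of probe sets can change only the 3 members with several probe sets. The count of 422 therefore overstates how far the signs were put to a check. E2f2 gave -0.113 with array weights, -0.048 centred on the brighter genes, and between -0.203 and 0.172 with 1 array left out. Rrm2 gave -0.00197 with the mean of probe sets and between -0.088 and 0.471 with 1 array left out, and Cdt1 between -0.043 and 0.303; all 3 were lowest without WT replicate 2. The cause was not tested. The median difference was between 0.28 and 0.33 with all arrays kept, 0.279 centred and 0.285 with a further quantile normalization, and between 0.219 and 0.471 with 1 left out, lowest without WT replicate 2. The number of members higher at an unadjusted p under 0.05 was between 11 and 15 with all arrays and between 4 and 22 with 1 left out. The labels do not say whether replicate numbers pair the arrays. Same-numbered deviations from the group means correlated across genes at 0.294, 0.016 and -0.140, and not every array correlated best with its own number. With 3 arrays a group these correlations cannot settle whether the arrays were paired. With the replicate block 14 members were higher at an unadjusted limma p under 0.05. Each replicate number holds a WT and a knockout array, so the block cannot change a difference, only its SE and p. The median difference of 0.335 and the Ctcf difference of -0.82 were thus fixed in advance. Ctcf had a limma adjusted p of 0.0971 with the block, and no member was called. Scanner files were not used here, so background correction was not varied.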
